A study of Vitis vinifera with 23 samples.

Results

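ELIP1 (gene identifier Vv05s0020g04110, also written VIT_05s0020g04110) is the grapevine gene annotated as an early light-inducible protein, and it was taken by its identifier as 1 of the 29970 genes of the expression table. The data were transcript levels in berries of Vitis vinifera cv. Sauvignon blanc from 1 vineyard, sampled at EL31 (green, pea-sized berries), EL33 (pre-véraison), EL34 (véraison, a stage that the study's text calls EL35) and EL38 (ripe berries). Exposed berries came from vines whose leaves had been removed in the bunch zone to let in more light, and control berries came from shaded bunches of untreated vines of the same cultivar. Each of the 8 groups of stage and treatment held 3 samples, except EL38 control, which held 2 because the study left out 1 sample as an outlier. A replicate was a separate panel of vines. Seeds had been removed and skin and pulp were extracted together, so the levels are those of skin and pulp together, in which a change in the share of cells that carry a transcript and a change per cell cannot be told apart.

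Early light-inducible proteins are nuclear-encoded proteins of the thylakoid membrane and relatives of the chlorophyll a/b-binding antenna proteins. In other plants, such as Arabidopsis, pea and barley, they accumulate transiently during greening and under high light, cold or other stress, when they are thought to hold free chlorophyll and limit photo-oxidative damage, whereas antenna transcripts usually fall under such light. They are therefore widely used as markers of light stress in chloroplasts.

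ELIP1 was higher in exposed than in control berries in every sample of every stage, and its level also rose with development in both treatments. All values are FPKM, fragments per kilobase of transcript scaled to the number of mapped fragments of the sample, as deposited. At EL31 it stood at 763, 663 and 710 FPKM in the exposed samples and at 124, 114 and 177 FPKM in the control samples. The lowest exposed sample was 3.75 times the highest control sample. At EL33 the exposed samples held 979, 1173 and 1004 FPKM and the control samples 185, 152.2 and 318 FPKM. Again the groups did not overlap, and the control sample at 318 FPKM stood above the other two.

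At EL34 the exposed samples were at 2718, 1816 and 2184 FPKM and the control samples at 1110, 920 and 1543 FPKM. Here the lowest exposed sample was only 1.18 times the highest control sample. At EL38 the exposed samples were at 1993, 1781 and 2137 FPKM and the 2 control samples at 1677 and 1262 FPKM. The margin between the groups was smallest at this stage, at 1.06 times. The control replicate that was highest at each earlier stage has no EL38 sample in the table, so this margin rests on the other 2. ELIP1 was among the abundant transcripts of the berry throughout. It ranked between 1768 and 2650 of the 29970 genes in EL31 control samples, between 437 and 529 in EL31 exposed samples, and between 89 and 225 in the 5 ripe samples.

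**Figure D1:**
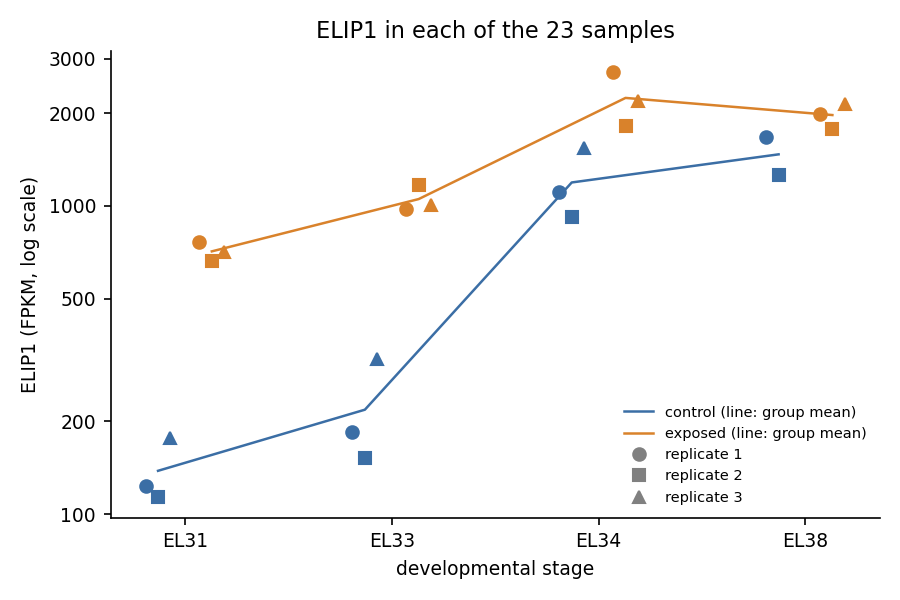
ELIP1 level in FPKM (vertical axis, logarithmic) in each of the 23 samples by stage, with exposed samples in orange, control samples in blue, a marker shape for each replicate number and lines through the group means. Exposed points lie above control points at all 4 stages, the control mean climbs from 138.3 FPKM at EL31 to 1469 FPKM at EL38, and the gap between the lines narrows on this scale from EL34 onward.

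The exposure effect was tested at each stage with limma on log2(FPKM + 0.1), with p-values adjusted by the Benjamini-Hochberg method over the 20205 genes that reached a mean of 1 FPKM in at least 1 group. At EL31 exposed berries averaged 712 ± 50.045 FPKM (SD, n = 3) and control berries 138.3 ± 33.9 FPKM (SD, n = 3). The log2 fold change was 2.39 (standard error 0.25, limma adjusted p = 1.40e-05), a fold change of 5.23 with a 95% interval of 3.65 to 7.51. At this stage 4.68% of the tested genes passed an adjusted p of 0.05 and 3.8% did so upward. ELIP1 was the gene with the 34th lowest p-value, and 1.15% of the tested genes had a higher log2 fold change.

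At EL33 exposed berries averaged 1052 ± 105 FPKM (SD, n = 3) and control berries 218 ± 87.8 FPKM (SD, n = 3). The log2 fold change of ELIP1 was 2.34 (standard error 0.25, limma adjusted p = 1.09e-04), or 5.05-fold with a 95% interval of 3.52 to 7.25. Only 5 genes had a lower p-value, at a stage where 3.49% of the tested genes passed and 2.54% passed upward. When the 6 samples of EL33 were fitted without the other stages, the adjusted p rose to 0.0892.

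At EL34 exposed berries averaged 2239 ± 453 FPKM (SD, n = 3) and control berries 1191 ± 319 FPKM (SD, n = 3). The difference in level, 1048 FPKM, was the greatest of the 4 stages, while the fold change was smaller than in green berries, at 1.90 with a 95% interval of 1.32 to 2.72. The log2 fold change was 0.92 (standard error 0.25) and the limma adjusted p was 0.0486, just inside the threshold that 3.33% of the tested genes passed, 2.17% upward. This call was lost in 25 of 35 alternative fits, with adjusted p between 0.0521 and 0.209 where it was lost, although the effect was positive in all 35.

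At EL38 exposed berries averaged 1970.5 ± 179 FPKM (SD, n = 3) and control berries 1469 ± 293 FPKM (SD, n = 2). The log2 fold change was 0.43 (standard error 0.28, limma adjusted p = 0.472), and the 95% interval of the fold change, 0.902 to 2.02, included 1. ELIP1 was thus not called at the ripe stage in this fit, where 4.79% of the tested genes were and 1.52% upward. The study's own test on aligned reads (CuffDiff) lists ELIP1 as significant at every stage, the ripe stage included. The study also measured ELIP1 by RT-PCR, and reports mostly similar trends through development by both methods for the genes so measured. Those RT-PCR values were not used here.

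Averaged over the 4 stages, ELIP1 was higher in exposed berries by 1.52 on the log2 scale. An exact two-sided permutation test of treatment within stages placed the observed arrangement as the most extreme of 80000 (p = 1.25e-05, the smallest it can give). That test treats samples of different stages as independent. The last 2 digits of the sample number recur from stage to stage, and a comparison of the 3 exposed with the 3 control numbers gave a mean difference of 1.54, also the most extreme of its 20 arrangements. Its exact two-sided permutation p was 0.1, the smallest that 3 against 3 allows. Within a single stage the exact two-sided permutation p of the FPKM difference was 0.1 at each of the 4 stages, again the smallest possible.

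The exposure effect on ELIP1, taken as a fold change, differed between stages. The fold changes of green berries and of ripe berries were compared directly by interaction contrasts in the same limma fit. From EL31 to EL38 the effect decreased by 1.95 on the log2 scale (standard error 0.37, limma adjusted p = 0.0107), in a comparison where 2.54% of the tested genes passed. From EL33 to EL38 it decreased by 1.90 (standard error 0.37, limma adjusted p = 0.0119), where 2.28% passed. Both calls were lost under quantile normalization (adjusted p = 0.0596 and 0.0515), with a block for the range of the sample number (0.0994 and 0.135) and without replicate 1 of EL38 control (0.0593 and 0.0642).

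The decrease from EL31 to EL34 was 1.46 (limma adjusted p = 0.130) and that from EL33 to EL34 was 1.41 (limma adjusted p = 0.147). These comparisons did not pass, in a setting where only 0.188% and 0.114% of genes did. Between EL31 and EL33 the effect of exposure on ELIP1 was nearly the same, with a difference of -0.05 and a 95% interval of -0.79 to 0.69 (limma adjusted p = 1, 0.0099% of genes passing). Between EL34 and EL38 the difference was -0.49 (limma adjusted p = 0.628, 1.15% passing). A moderated F test over the 4 stages gave F = 14.8 and an adjusted p of 0.0104, with 2.1% of the tested genes passing.

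**Figure D2:**
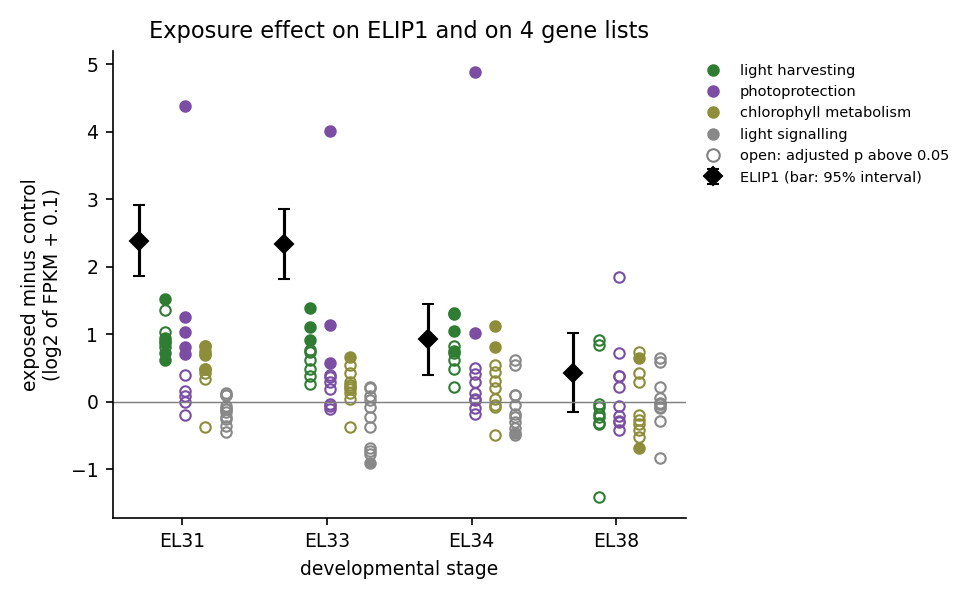
Exposed minus control on log2(FPKM + 0.1) (vertical axis) at each stage for ELIP1 (black diamonds, bars are 95% intervals) and for the genes of 4 lists (circles, filled where the adjusted p is at most 0.05). ELIP1 lies at 2.39 and 2.34 at EL31 and EL33, above all members of the lists except FtsH 14s, and falls to 0.92 and 0.43 at EL34 and EL38, among the light-harvesting genes.

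In control berries, which had no leaf removal, ELIP1 rose 10.7-fold from EL31 to EL38 (log2 fold change 3.42, standard error 0.28, limma adjusted p = 5.60e-09, 95% interval of the fold change 7.15 to 16.04). Development changed most of the transcriptome, with 66.5% of the tested genes passing over this span and 30.8% passing upward, and 4.04% of the tested genes had a higher fold change than ELIP1. Most of the rise fell between EL33 and EL34, the step across véraison, where ELIP1 increased 5.61-fold (log2 fold change 2.49, standard error 0.25, limma adjusted p = 3.13e-07) and 23% of genes passed upward.

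The steps on either side were smaller in control berries. From EL31 to EL33 the log2 fold change of ELIP1 was 0.61 (limma adjusted p = 0.0686, 11.5% of genes passing upward), and the control ranges, 114 to 177 and 152.2 to 318 FPKM, overlapped. From EL34 to EL38 it was 0.32 (limma adjusted p = 0.373, 21.8% passing upward), with ranges of 920 to 1543 and 1262 to 1677 FPKM that overlapped as well. The order of the control samples was the same at EL31, EL33 and EL34, with replicate 3 highest and replicate 2 lowest, and ELIP1 was higher at the later stage in 3 of 3 same-numbered control samples from EL31 to EL33 and in 2 of 2 from EL34 to EL38. The labels do not say whether a number marks a shared panel. With a block for the replicate number in the limma fit, both steps passed (0.61, adjusted p = 0.00263, and 0.56, adjusted p = 0.00895).

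In exposed berries ELIP1 started higher and rose less. From EL31 to EL38 it increased 2.76-fold (log2 fold change 1.47, standard error 0.25, limma adjusted p = 3.77e-05), where 32.6% of the tested genes passed upward. The step from EL33 to EL34 was again the one that passed, at 2.11-fold (log2 fold change 1.07, standard error 0.25, limma adjusted p = 0.00185, 21.4% passing upward). The step from EL31 to EL33 had a log2 fold change of 0.56 (limma adjusted p = 0.0956, 11.7% passing upward) although its ranges, 663 to 763 and 979 to 1173 FPKM, did not overlap. With a block for the replicate number this step passed (limma adjusted p = 0.00469). From EL34 to EL38 the log2 fold change was -0.17 (limma adjusted p = 0.597, 29.5% passing downward), and the ranges overlapped.

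Ordered by mean level, ELIP1 went from EL31 control over EL33 control, EL31 exposed, EL33 exposed, EL34 control, EL38 control and EL38 exposed to EL34 exposed. The lowest neighbours, EL31 and EL33 control, overlapped. EL31 exposed berries lay 3.26 times above EL33 control berries with no overlap, and EL33 exposed above EL31 exposed likewise. Pre-véraison exposed berries (979 to 1173 FPKM) overlapped with véraison control berries (920 to 1543 FPKM), so the range of exposed berries before véraison met that of control berries at véraison. EL34 and EL38 control overlapped, EL38 control and exposed did not, and EL38 exposed overlapped with EL34 exposed. Replicates varied more among control than among exposed samples, with a coefficient of variation of 19.9% to 40.2% in the 4 control groups and 7.03% to 20.2% in the 4 exposed groups.

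Control replicate 3 carried the highest ELIP1 level of its group at EL31, EL33 and EL34, at 177, 318 and 1543 FPKM. These 3 samples share the last 2 digits of their sample number, 63, and their counterpart at EL38 is not in the table. The lack of overlap at EL38 and the effect of 0.43 there thus rest on the other 2 control samples. In the same samples the antenna genes stood high as well, with 8 of 9, 7 of 9 and 9 of 9 light-harvesting genes at their highest control level at EL31, EL33 and EL34, against 27.1%, 32.4% and 32.5% of all tested genes. Leaving out the highest control samples had to raise the exposure effect at their stages, so a lower adjusted p then shows no firmer call. Without these 3 samples, a choice made after seeing the data, the exposure effect on ELIP1 was 2.58 at EL31, 2.64 at EL33 and 1.13 at EL34 on the log2 scale (limma adjusted p = 2.47e-06, 5.66e-06 and 0.00295). At EL38, which holds no control sample numbered 63, the effect of 0.43 could not change, and only its limma adjusted p moved (0.230).

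Sample numbers fell into a range in the fifties and a range in the sixties, whose meaning the labels do not give. In the fifties, with 1 exposed and 2 control samples a stage, the exposed level of ELIP1 was 6.42 times the control mean at EL31, 5.81 times at EL33, 2.68 times at EL34 and 1.36 times at EL38. In the sixties, with 2 exposed and 1 control sample, it was 3.88, 3.42 and 1.30 times at EL31, EL33 and EL34, and no control sample remained at EL38. No exposed sample lay below a control sample of its stage, so the direction could not differ between the ranges. ELIP1 was nearest to equal in the sixties at EL34, where the only control sample was the highest control of its stage.

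The antenna protein genes had smaller log2 fold changes with exposure than ELIP1 in green berries. The list of 9 light-harvesting genes holds LHCA1 to LHCA6 of photosystem I and LHCB2.1, LHB1B1 and LHCII type I CAB-1 of photosystem II. Of these, 4 were taken from the study's text, which describes their response to exposure in these same samples. For those 4 an exposure call is no independent evidence. At EL31 6 of 9 rose and 0 fell (3.8% and 0.881% of the tested genes did), with a median log2 fold change of 0.91, against -0.03 over all tested genes. The highest was LHB1B1 at 1.53 (limma adjusted p = 0.00105), below the 2.39 of ELIP1. At EL33 3 of 9 rose (median 0.74, with 2.54% of all tested genes rising) and at EL34 4 of 9 (median 0.75, with 2.17% rising). At EL34 3 members, LHCA1, LHCA4 and LHB1B1, had a higher log2 fold change than ELIP1. At EL38 0 of 9 passed in either direction (4.79% of the tested genes did) and the median was -0.18. The study's own test called more. It lists every photosystem gene it examined as higher at EL31. At EL38 it still lists LHCII type I CAB-1 as higher, and the others as unaffected or lower.

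With development ELIP1 and the antenna genes moved apart. In control berries all 9 antenna genes fell from EL31 to EL38, with log2 fold changes of -7.67 to -2.86 and a median of -5.10, while ELIP1 rose by 3.42. Over the same span 35.8% of the tested genes fell and the median of all tested genes was -0.07. In exposed berries all 9 fell too, with a median of -6.59 (38.7% of the tested genes fell). Of the 9 antenna genes, 5 were taken from the study's list of developmental markers, chosen on these samples, as were 7 of the photoprotection genes and all genes of chlorophyll metabolism and light signalling below, so for them the direction with development is no independent evidence. In sums of FPKM, ELIP1 held 0.0234 to 0.0324 of the summed antenna level in EL31 control samples and 5.08 to 5.21 times that sum in EL38 control samples. In exposed samples the same ratio went from 0.0733 to 0.0800 at EL31 to 5.95 to 8.30 at EL38. At EL34 the ratios of both treatments overlapped, at 1.37 to 1.50 in control and 1.02 to 2.03 in exposed samples.

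**Figure D3:**
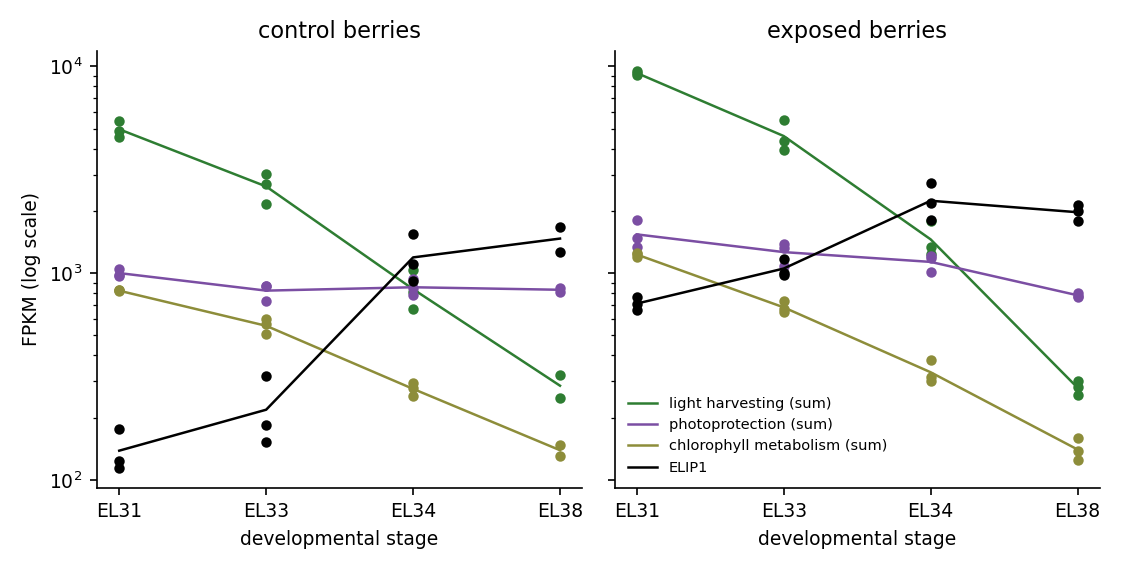
ELIP1 and the summed levels of 3 gene lists in FPKM (vertical axis, logarithmic) by stage in control (left) and exposed (right) berries, where points are samples and lines join group means. The mean antenna sum falls at each step, the ELIP1 mean climbs at each step except from EL34 to EL38 in exposed berries, and the 2 lines cross between EL33 and EL34 in both treatments.

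The photoprotection list holds 10 genes with other roles in the handling of excess light. PsbS, the photosystem II subunit that starts non-photochemical quenching, rose with exposure at EL31, EL33 and EL34 by 1.03, 1.14 and 1.02 on the log2 scale (limma adjusted p = 0.00935, 0.00737 and 0.0146). Violaxanthin de-epoxidase, the enzyme that forms zeaxanthin in the xanthophyll cycle, is encoded by 2 listed genes, of which VDE 04s rose by 1.26 at EL31 and 0.58 at EL33 and VDE 07s by 0.81 at EL31. FtsH 14s is annotated as an FtsH protease, and the study describes it as putatively breaking down damaged D1 protein. This gene had a larger log2 fold change than ELIP1, 4.39 at EL31. Its control levels there were only 0 to 0.0281 FPKM and its exposed levels 1.73 to 2.64 FPKM, where the value depends on the pseudocount. In all, 5 of 10 rose at EL31, 3 at EL33, 2 at EL34 and 0 at EL38, against 3.8%, 2.54%, 2.17% and 1.52% of all tested genes. FtsH 14s is counted among the 5 at EL31. The study's own test did not call it at that stage, which the study puts down to variable replicates. None fell, and the median log2 fold changes were 0.55, 0.33, 0.21 and 0.08. Of the 10, 3 were taken from the study's text, which describes their response to exposure in these same samples. For those 3 the calls are no independent evidence.

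One gene of this list also rose with development. The thylakoid ascorbate peroxidase gene tAPX, whose product removes hydrogen peroxide, rose by 1.47 on the log2 scale from EL31 to EL38 in control berries (limma adjusted p = 7.63e-10). It had no called exposure effect at any stage, with log2 fold changes of 0.16, 0.20, 0.04 and -0.29. From EL31 to EL38 in control berries 8 of the 10 photoprotection genes fell, against 35.8% of all tested genes, among them PsbS (log2 fold change -1.94) and the one-helix protein (-1.91), a small light stress-responsive relative of ELIP1 and the antenna proteins. The exposure effect on the one-helix protein was -0.20 at EL31 (limma adjusted p = 0.654) and -0.03 at EL33 (0.971).

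Of 10 genes of chlorophyll metabolism, 7 rose with exposure at EL31, with a median of 0.59 over the list and a maximum of 0.83 for protochlorophyllide oxidoreductase, the light-requiring step of chlorophyll synthesis. At EL33 1 rose, at EL34 2 rose, and at EL38 1 rose and 1 fell. Over all tested genes 3.8%, 2.54%, 2.17% and 1.52% rose at EL31, EL33, EL34 and EL38. The gene that fell was ACD1 (log2 fold change -0.69, limma adjusted p = 0.0410), which acts in chlorophyll breakdown, at a stage where 3.26% of the tested genes fell. All 10 fell from EL31 to EL38 in control berries (35.8% of all tested genes fell), with a median of -2.60. Of 11 genes of light signalling, among them phytochrome genes and interactors of COP1, 0 rose at any stage, and 1 fell at EL33 (PAP1 phytochrome-associated protein, -0.90, with 0.95% of all tested genes lower) and 1 at EL34 (phytochrome A, -0.46, with 1.16% lower).

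Oleosin transcripts, markers of seed tissue, were looked for because seeds had been removed. Of the 6 listed genes, 2 came from the study's list of developmental markers and 4 from its list of genes strongly changed by exposure. Both lists were made on these samples, so changes of these genes with stage or exposure are no independent evidence. The 6 listed oleosins, which coat oil bodies in seeds, summed to 1.87 to 128 FPKM over the 12 samples of EL31 and EL33, to 425 to 577 FPKM at EL34 and to 177 to 263.9 FPKM at EL38. At EL34 the sum was 462 to 485 FPKM in control and 425 to 577 FPKM in exposed samples, so the treatments overlapped. Oleosin OLE-4 02s, at 210.4 to 377 FPKM at EL34, and the oleosin H-isoform gene Vv14s0066g00700 made up most of the sum, while Oleosin OLE-2 was at 0 in the EL34 control samples. From EL33 to EL34 3 of the 6 rose in control berries and the same 3 in exposed berries (23% and 21.4% of the tested genes rose), namely Oleosin OLE-4 02s, Oleosin OLE-3 and the oleosin H-isoform gene Vv14s0066g00700, and 0 fell. Oleosin transcripts were thus present in the later samples although seeds had been removed, and the part of these 3 genes in the developmental rise of ELIP1 was not tested.

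The 10 genes whose pattern was most like that of ELIP1 were ranked by Pearson r on log2(FPKM + 0.1) over the 23 samples, which share stages and treatments, among 20204 other tested genes. The leading ones were a rubber elongation factor gene (Vv14s0060g02140, r = 0.954), a MATE efflux family gene annotated as ripening responsive (Vv00s0477g00030, r = 0.952) and the anion transporter gene ANTR2 (Vv15s0046g02390, r = 0.948). They were followed by the small heat shock protein gene HSP26.5-P (r = 0.937), the chloroplast import gene TIC55 (r = 0.924) and a cytosolic class II heat shock protein gene (r = 0.923). A carbohydrate kinase (r = 0.915), a beta-amylase (r = 0.913), a ubiquitin-conjugating enzyme E2 variant (r = 0.912) and methionine sulfoxide reductase A (r = 0.905) completed the list. In all 15 genes reached r = 0.9, and the median over the 20204 genes was -0.08. Only 3 of the 10 remained among the top 10 by Spearman's rho and 5 by r over the 8 group means, so the names depend on the measure.

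The exposure effects of these genes differed in size, and methionine sulfoxide reductase A averaged lower in exposed (545.5 FPKM) than in control berries (640.6 FPKM) at EL38, without a call (limma adjusted p = 0.387). The class II heat shock protein gene averaged 7.16 FPKM in control and 249.6 FPKM in exposed berries at EL31, and 265 and 1387 FPKM at EL38. Its exposure effect on the log2 scale was 5.13 at EL31 and 2.35 at EL38. For HSP26.5-P it was 2.59 at EL31 and 1.12 at EL38. Both genes were chosen for their likeness to ELIP1 in the same samples, so their rise with exposure is no separate evidence. The rubber elongation factor gene moved far less, from 257 FPKM in control and 370 FPKM in exposed berries at EL31 to 550 and 559 FPKM at EL38. Of the genes in all 5 lists, Oleosin OLE-3 had the highest r with ELIP1, at 0.823, followed by tAPX at 0.803 and Oleosin OLE-4 02s at 0.791, and the light-harvesting genes ranged from -0.65 to -0.40.

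**Figure D4:**
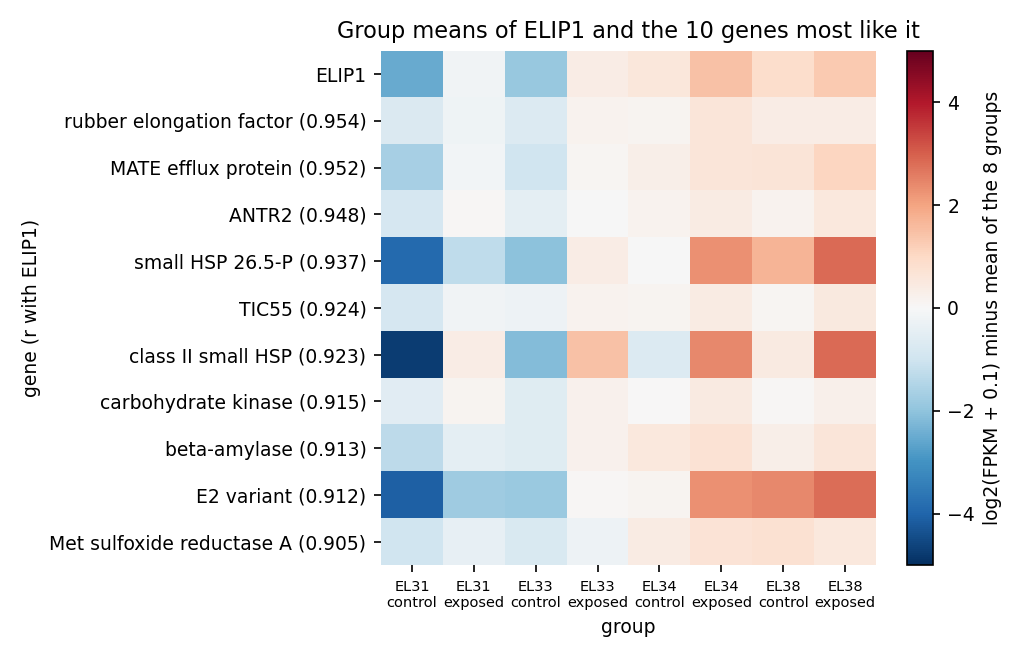
Mean of each of the 8 groups (columns) for ELIP1 and the 10 genes most like it (rows, r over 23 samples in brackets), as log2(FPKM + 0.1) minus the mean of the 8 groups (colour). EL31 control is the lowest group for ELIP1, at -2.54, and the heat shock protein and E2 variant rows span a wider range than ELIP1.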

How the data were processed

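The authors prepared poly(A) mRNA from 3 panels per treatment and stage, sequenced it on an Illumina instrument, aligned reads to the V1 grapevine genome with TopHat2 and computed the deposited FPKM values with Cufflinks. All 23 FPKM columns were used, and 0 were left unused. FPKM are not counts, so no count model was fitted. Values were tested as log2(FPKM + 0.1) with limma 3.58.1 in R 4.3.3, with 1 mean per group, 15 residual degrees of freedom and a variance trend. A gene entered the test if its mean reached 1 FPKM in any group (20205 genes, 9765 left out), and p-values were adjusted (Benjamini-Hochberg) within each contrast at 0.05. Permutation tests and figures used Python 3.11.15. ELIP1, the gene lists and the tests were chosen with earlier results of these data known. The genes named are ELIP1, the listed genes and the 10 most like ELIP1. The fit was tested on simulated data.

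The FPKM values hold no read totals, and totals that the study gives per group were not used here. Ratios between samples of FPKM under 0.06 put relative depth at about 0.703 to 2.62 (median of 15 genes per pair of samples), so no counting interval was computed and precision rests on the spread between replicates. Alternatives were pseudocounts of 0.5 and 1, other filters and scalings, no variance trend, each stage alone, blocks by replicate or sample number, and each sample left out. Position and sequence of ELIP1 were not used here.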

Additional observations from a re-analysis of the deposited data

Results flagged for a closer look

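The exposure effect on ELIP1 differed between stages by a direct test of the difference on the log2 scale. It was lower at EL38 than at EL31 by a log2 difference of -1.95 (limma adjusted p = 0.0107) and lower at EL38 than at EL33 by -1.90 (limma adjusted p = 0.0119). The moderated F test over the 4 stages gave 14.8 (adjusted p = 0.0104). Exposed samples were above control samples at every stage, so the difference lies in the size of the fold change and not in direction. It depends on the scale. In FPKM, exposed minus control was 574 at EL31, 834 at EL33, 1048 at EL34 and 501 at EL38. Differences between stages were not tested in FPKM. The seed oleosin sums and antenna sums given in the report also changed between these stages, and their part was not tested. Outlier samples were not looked for by a formal rule because no group held more than 3 samples.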

How the results depend on the processing

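The exposure effect on ELIP1 at EL31 and EL38 and its rises from EL31 to EL38 and from EL33 to EL34, in both treatments, kept their side of the threshold in every alternative tried, as did the permutation test within stages. The exact permutation test by sample number cannot go below p = 0.1 and says nothing on stability. At EL34 the call of 0.92 was lost without the filter (0.92), with median-of-ratios scaling (0.92), quantile normalization (0.90), no variance trend (0.92) or the stage alone (0.92, adjusted p = 0.181). It was also lost in 18 of 23 fits that left out 1 sample (0.76 to 0.93 in those 18, 0.76 to 1.13 in all 23). At EL33 the stage alone kept 2.34 and lost the call.

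The replicate numbers were not used to pair samples in the main fit. Only 1 of 11 pairs of an exposed and a control sample and 1 of 33 pairs across stages had correlated deviations above 0.1. Leaf removal was applied to whole panels, so an exposed and a control sample came from different panels. Only the pairs across stages bear on a shared panel. With so few samples a group, they cannot exclude that same-numbered samples of a treatment came from the same panel, which the labels do not state. With the replicate block within each stage, which joins exposed and control samples by number alone, EL34 stayed at 0.92 (adjusted p = 0.0651). With the replicate block within each treatment, the control steps EL31 to EL33 (0.61, adjusted p = 0.00263) and EL34 to EL38 (0.56, 0.00895) passed. So did the exposed step EL31 to EL33 (0.56, 0.00469). The block for the sample number range lost EL34 (0.90) and the interactions EL31 to EL38 (-1.86) and EL33 to EL38 (-1.70). A random block passed both EL31 to EL33 steps (0.61 control, 0.56 exposed) and the interaction EL31 to EL34 (-1.46).

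Quantile normalization passed the exposed step EL31 to EL33 (0.82), lost the interactions EL31 to EL38 (-1.64) and EL33 to EL38 (-1.72), and turned the uncalled exposed step EL34 to EL38 (0.17) and interaction EL31 to EL33 (0.084). The 3 control samples numbered 63, the highest ELIP1 controls of their stages, were left out after seeing the data. Without them the control step EL34 to EL38 (0.53), the exposed step EL31 to EL33 (0.56) and the interactions EL31 to EL34 (-1.45) and EL33 to EL34 (-1.52) passed. The uncalled EL31 to EL33 interaction turned (0.065). Leaving out 1 sample moved the control step EL31 to EL33 over 0.31 to 0.84, the exposed one over 0.48 to 0.61, and the interactions EL31 to EL33 over -0.28 to 0.26, EL31 to EL38 over -2.16 to -1.75, EL33 to EL38 over -2.21 to -1.68 and EL33 to EL34 over -1.72 to -1.19. The causes were not tested. Of 608 recounts of called genes over all contrasts, 518 stayed within 1.5 times. From the FPKM values depth is known only as a ratio, and 2 control samples limit every EL38 comparison.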
